A study of Mus musculus with 18 samples.

Results

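The genes described here act between a circulating glucocorticoid and its target genes in skeletal muscle and white fat. They are the 2 corticosteroid receptors (Nr3c1, Nr3c2), the 2 immunophilins of the receptor complex (Fkbp5, Fkbp4), the chaperones HSP90 alpha and beta and their p23 co-chaperone (Hsp90aa1, Hsp90ab1, Ptges3), and the enzyme pair that makes active steroid inside the endoplasmic reticulum (Hsd11b1, H6pd). They were chosen by symbol, and all 9 were found among the 33641 genes of the table. The RNA came from the quadriceps and from white fat of 9 obese male mice of the inbred strain DBA/2J. All were wild type and, per the labels, about 20 weeks of age, an age given beside the start of dosing. All had eaten a high-fat diet for 12 weeks before treatment and stayed on it, so no lean or untreated animals were among them. For 12 further weeks 3 mice were injected into the peritoneum with prednisone once a week, 3 with prednisone every day, and 3 with vehicle every day, so weekly mice also received fewer injections than vehicle mice. Each prednisone dose was 1 mg/kg, in 100 µl of PBS from a DMSO stock, and the mice were dissected 24 hours after their final dose, so the levels are those at that interval and not during exposure. Every mouse gave both tissues, which made 18 libraries, 3 per group, and the fat depot is not named in the labels.

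As background, the glucocorticoid receptor waits in the cytoplasm in a complex with HSP90 and p23. FKBP51, the protein of Fkbp5, holds the receptor in a state of low hormone affinity, and its exchange for FKBP52, the protein of Fkbp4, goes with movement to the nucleus. Fkbp5 is itself a classic target gene of the receptor, which gives a short negative feedback loop. Prednisone is a prodrug: 11-beta-hydroxysteroid dehydrogenase type 1, the protein of Hsd11b1, reduces it to prednisolone, as it reduces inactive 11-dehydrocorticosterone to corticosterone in mice. The enzyme works as a reductase only while hexose-6-phosphate dehydrogenase, the protein of H6pd, supplies it with NADPH in the lumen of the endoplasmic reticulum.

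Values are TPM, length-corrected transcript abundances that add up to the same total in each library, summed here over the transcripts of a gene. Levels of different genes can be set side by side, but TPM keeps no read counts and the depth of each library is unknown. Between 11781 and 12200 genes reached 1 TPM in a muscle library, and between 13413 and 14076 in an adipose library. The labelled tissues had their markers: 10 muscle fibre genes summed to between 98450.3 and 115501 TPM in muscle, and 10 adipocyte genes to between 35436 and 39487 TPM in adipose tissue. Muscle libraries also held 754 to 1896 TPM of the adipocyte genes, and 3 adipose libraries (weekly 2, weekly 3 and daily 2) held 856 to 1385 TPM of the muscle fibre genes, against 141 to 232 TPM in the other 6. In every group the third library was the middle one for 42.3% to 55.8% of the genes averaging at least 10 TPM, where equal shares would give 33.3%, and for 28 of the 54 sets of 3 values of these 9 genes. A library between the other 2 narrows the measured spread, so the values of members called against vehicle are also given without the third libraries.

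All 9 genes were above 1 TPM in all 18 libraries, so each passed the filter on low values, and Hsp90ab1 stood above the other 8 in each tissue. In muscle the order of the medians over 9 libraries was Hsp90ab1 at 480.0 TPM, Fkbp4 at 80.1, Hsp90aa1 at 48.6, Ptges3 at 48.4, H6pd at 21.5, Nr3c1 at 15.8, Hsd11b1 at 13.2, Fkbp5 at 9.87 and Nr3c2 at 2.63. In adipose tissue it was Hsp90ab1 at 490.0, Hsp90aa1 at 239, H6pd at 151, Hsd11b1 at 83.5, Fkbp4 at 60.03, Ptges3 at 58.3, Nr3c1 at 33.7, Fkbp5 at 14.2 and Nr3c2 at 2.64. In muscle the range of Hsp90aa1, 33.8 to 95.9 TPM, held those of Fkbp4 and Ptges3, so its place beside them is not given by range. The ranges of Nr3c1 and Hsd11b1 and of Hsd11b1 and Fkbp5 overlapped over the 9 libraries. Within each muscle library, however, Nr3c1 was above Hsd11b1. Hsd11b1 was above Fkbp5 in each except daily 2, with 9.39 against 13.1 TPM. The ranges of H6pd and Nr3c1 met at 17.3 TPM. In adipose tissue Hsd11b1, Fkbp4 and Ptges3 overlapped.

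**Figure D1:**
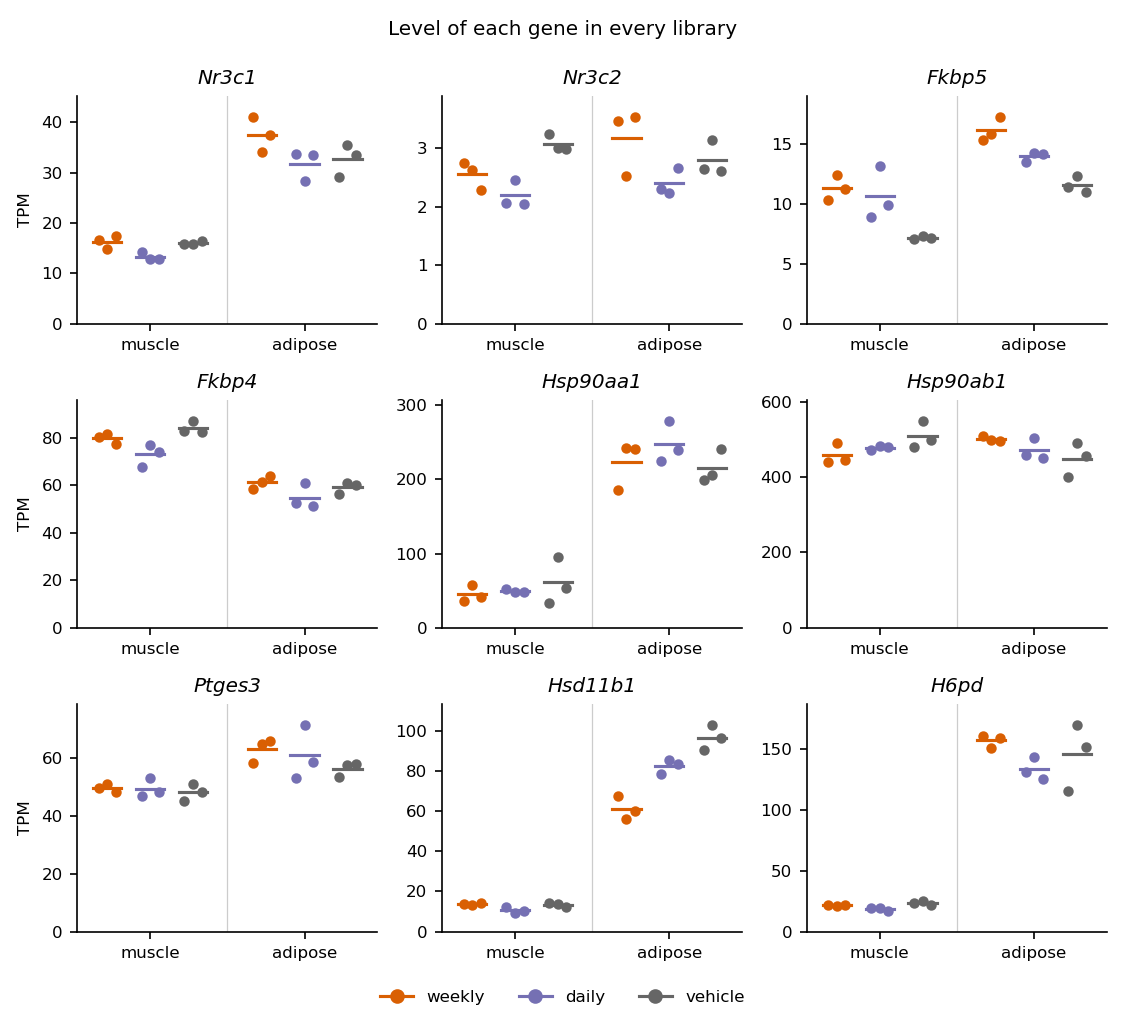
TPM of each of the 9 genes in every library (points) with the group mean (line), in muscle and adipose tissue, for weekly, daily and vehicle mice from left to right; each vertical axis starts at 0. Hsd11b1 in adipose tissue lay at 56.2 to 67.6 TPM in weekly mice, below every daily and vehicle library, and Fkbp5 lay above vehicle in all 4 treated groups.

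In vehicle mice both activating enzymes were lower in muscle than in adipose tissue. Hsd11b1 had 14.2, 13.9 and 12.3 TPM in muscle, against 90.2, 103 and 96.3 TPM in adipose tissue of the same mice. H6pd had 23.8, 24.7 and 21.9 TPM in muscle, against 115, 169.5 and 151 TPM in adipose tissue. Neither gene's ranges came near each other. On the log2(TPM + 1) scale the paired difference of muscle minus adipose tissue was -2.75 ± 0.11 for Hsd11b1 (SE; limma, adjusted p = 9.99e-09) and -2.56 ± 0.10 for H6pd (limma, adjusted p = 1.22e-08). Hsp90aa1 was also lower in muscle, by -1.93 ± 0.23 (limma, adjusted p = 2.07e-05), and Fkbp4 was higher there, by 0.50 ± 0.07 (limma, adjusted p = 7.32e-05). Under TMM scaling, which matches the bulk of genes between libraries, these 4 directions held with other sizes: -1.67 for Hsd11b1, -1.47 for H6pd, -0.82 for Hsp90aa1 and 1.61 for Fkbp4.

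In all, 8 of the 9 passed between the tissues, 2 higher and 6 lower in muscle, but so did 87.0% of the 11737 genes tested (13.1% higher and 73.9% lower), and the median of all genes stood at -0.88, or 0.03 after TMM scaling. Nr3c1 had 15.8, 15.9 and 16.5 TPM in muscle, against 29.1, 35.5 and 33.6 TPM in adipose tissue, a difference of -0.98 ± 0.08 (limma, adjusted p = 1.11e-06) that TMM scaling turned to 0.09 (limma, adjusted p = 0.218). In the same way Fkbp5 at -0.62 and Ptges3 at -0.22 turned to 0.39 and 0.88 under TMM scaling, so no direction between tissues is given for these 3. Hsp90ab1 was higher in muscle by 0.19 (limma, adjusted p = 0.0270) and by 1.30 under TMM scaling. Its unscaled call was lost without vehicle mouse 1, 2 or 3 (adjusted p 0.0509 to 0.116), and that of Ptges3 without vehicle mouse 1 or 3 (0.0526 and 0.0744). Nr3c2, the mineralocorticoid receptor, which also binds glucocorticoids, did not pass at 0.11 (limma, adjusted p = 0.367) but stood at 0.94 under TMM scaling.

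Other genes of steroid handling were read from a list of 16, of which 8 passed the filter in both tissues. Of these 7 were lower and 1 higher in muscle than in adipose tissue in vehicle mice, where 73.9% of 11737 genes were called lower and 13.1% higher. Their median was -1.50, against -0.88 for all genes. TMM scaling moved the median of all genes to 0.03, and this list was not refitted under it. G6pdx and Pgd, which make NADPH in the cytosol, differed by -4.56 and -4.06, and Por, which passes electrons from NADPH to cytochrome P450 enzymes, by -3.36. Slc37a4, which carries glucose 6-phosphate, the substrate of H6pd, into the endoplasmic reticulum, ran the other way at 3.21 (limma, adjusted p = 1.42e-08). Hsd11b2, which inactivates glucocorticoids, did not exceed 1.09 TPM in any library, and Serpina6, the gene of corticosteroid-binding globulin, was listed at 0 in every muscle library.

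Fkbp5 lies on the minus strand of chromosome 17 (28399094 to 28517527 in GRCm38, GENCODE M21). It was higher in every treated library than in every vehicle library of its tissue. In muscle it had 10.4, 12.4 and 11.3 TPM in weekly mice and 8.92, 13.1 and 9.87 TPM in daily mice, against 7.10, 7.29 and 7.12 TPM in vehicle mice. In adipose tissue it had 15.3, 15.8 and 17.3 TPM in weekly mice and 13.5, 14.2 and 14.2 TPM in daily mice, against 11.4, 12.3 and 10.95 TPM in vehicle mice. The weekly groups had the higher mean of the 2 regimens in both tissues, although the regimens overlapped in muscle. Fkbp5 rose in daily muscle by 0.49 ± 0.12 (limma, adjusted p = 0.0293) and in weekly adipose tissue by 0.45 ± 0.09 (limma, adjusted p = 0.0232). Weekly muscle gave a difference of 0.59 ± 0.12, the largest of the 4, and missed the threshold (limma, adjusted p = 0.123). Daily adipose tissue gave 0.25 ± 0.09 (limma, adjusted p = 0.435). Both comparisons of a tissue share their vehicle libraries. Weekly minus daily was 0.10 in muscle, with a 95% interval of -0.18 to 0.38, and 0.19 in adipose tissue, with an interval of 0.00 to 0.39.

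The 2 Fkbp5 calls had limits. All genes of weekly adipose tissue had a median of 0.13. TMM scaling moved this to -0.02 and Fkbp5 to 0.28 (limma, adjusted p = 0.0830). That call was also lost without vehicle 1, vehicle 3 or weekly 3 (0.44, 0.41 and 0.40, with adjusted p = 0.0508, 0.0860 and 0.0896 by limma), and without the 3 adipose libraries high in muscle transcripts (0.38, adjusted p = 0.0796). In daily muscle it was lost without vehicle 1, 2 or 3 or daily 3 (0.49 to 0.54, adjusted p 0.0717 to 0.0779), with no filter on low values (adjusted p = 0.0654) and in a fit of 2 groups (0.0579), and held under TMM scaling (0.58, adjusted p = 0.0444). Without the third libraries Fkbp5 stood at 0.53 in daily muscle (limma, adjusted p = 0.253) and at 0.36 in weekly adipose tissue (limma, adjusted p = 0.346). The weekly adipose call was also lost in a fit of 2 groups (adjusted p = 0.0526).

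The 300 bases around the Fkbp5 start site, from 250 before it to 50 after it in the RefSeq table of GRCm38.p6, are shown because Fkbp5 was the member whose treated and vehicle libraries were apart in all 4 comparisons. Capitals mark the CCAAT boxes (CCAAT, or ATTGG on the other strand) and GC boxes (GGGCGG, or CCGCCC on the other strand); at 1 place a GC box runs directly into an ATTGG.
Fkbp5 promoter, chr17:28486100-28486399, minus strand: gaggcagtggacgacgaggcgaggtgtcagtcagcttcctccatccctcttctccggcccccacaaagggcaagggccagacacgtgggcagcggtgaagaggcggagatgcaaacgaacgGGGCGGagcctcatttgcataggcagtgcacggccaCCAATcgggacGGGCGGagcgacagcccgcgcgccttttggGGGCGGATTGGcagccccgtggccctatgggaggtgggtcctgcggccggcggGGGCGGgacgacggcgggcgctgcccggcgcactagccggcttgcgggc
The window held 2 CCAAT boxes and 4 GC boxes. A full glucocorticoid response element, searched as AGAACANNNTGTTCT, which reads the same on both strands, was not among these letters, nor was either of its arms, AGAACA or TGTTCT. Among all 32851 promoter windows, 0.00913% held the full element and 19.0% a single arm. An absence so common says nothing particular about Fkbp5, and bases outside the window were not searched. Windows were given for 6 of the 9 members: 0 of 6 held the full element, 1 of 6 a single arm, 5 of 6 a CCAAT box (37.4% of all windows) and 4 of 6 a GC box (35.7%). A heat shock element, searched as GAANNTTCNNGAA on both strands, was in 0 of 6, against 0.603% of all windows. The CCAAT and GC boxes were added after the windows were seen.

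Fkbp4, whose protein takes the place of FKBP51 in the receptor complex, was several times more abundant than Fkbp5. It had 80.1, 81.7 and 77.3 TPM in weekly muscle and 67.6, 77.0 and 74.0 TPM in daily muscle, against 82.9, 87.0 and 82.1 TPM in vehicle muscle. Both treated groups lay below vehicle without overlap, as did 19.3% of all genes in weekly and 27.8% in daily muscle. Fkbp4 fell in daily muscle by 0.20 ± 0.06 (limma, adjusted p = 0.0425) and stood at -0.08 ± 0.06 in weekly muscle (limma, adjusted p = 0.558). The median of all genes in weekly muscle was -0.07. Under TMM scaling the weekly difference of Fkbp4 was -0.00. The daily call was lost without any 1 of vehicle 1, 2 or 3, weekly 1, 2 or 3, daily 1 or daily 3 (-0.22 to -0.15, adjusted p 0.0544 to 0.126), and TMM scaling gave -0.11 (adjusted p = 0.405). Without the third libraries Fkbp4 stood at -0.23 (limma, adjusted p = 0.284). In adipose tissue Fkbp4 had 58.4, 61.4 and 63.8 TPM in weekly mice and 52.3, 60.7 and 51.1 TPM in daily mice, against 56.4, 60.7 and 60.03 TPM in vehicle mice, and all 3 groups overlapped.

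The ratio of Fkbp5 to Fkbp4 within a library does not depend on how the library was scaled. In muscle Fkbp4 was 7.73, 6.57 and 6.85 times as abundant as Fkbp5 in weekly mice and 7.59, 5.85 and 7.49 times in daily mice, against 11.7, 11.9 and 11.5 times in vehicle mice. In adipose tissue it was 3.81, 3.89 and 3.69 times as abundant in weekly mice and 3.88, 4.27 and 3.61 times in daily mice, against 4.94, 4.92 and 5.48 times in vehicle mice. Treated and vehicle libraries did not overlap in any of the 4 comparisons. The same held for Fkbp5 alone, so the ratio is not separate evidence. How often ratios of other genes stood apart was not counted. The log2 ratio of Fkbp5 to Fkbp4 averaged -2.81 ± 0.12 in weekly and -2.79 ± 0.21 in daily muscle, against -3.55 ± 0.02 in vehicle muscle (SD, n = 3 each, differences 0.74 and 0.76, exact permutation p = 0.1 for each, two-sided). In adipose tissue it averaged -1.92 ± 0.04 in weekly and -1.97 ± 0.12 in daily mice, against -2.35 ± 0.09 in vehicle mice (SD, n = 3 each, differences 0.43 and 0.38, exact permutation p = 0.1 for each, two-sided). This is the smallest p that 3 against 3 can give, and over the 24 ratio tests it adjusted to 0.267. Weekly minus daily was -0.02 in muscle and 0.04 in adipose tissue.

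**Figure D2:**
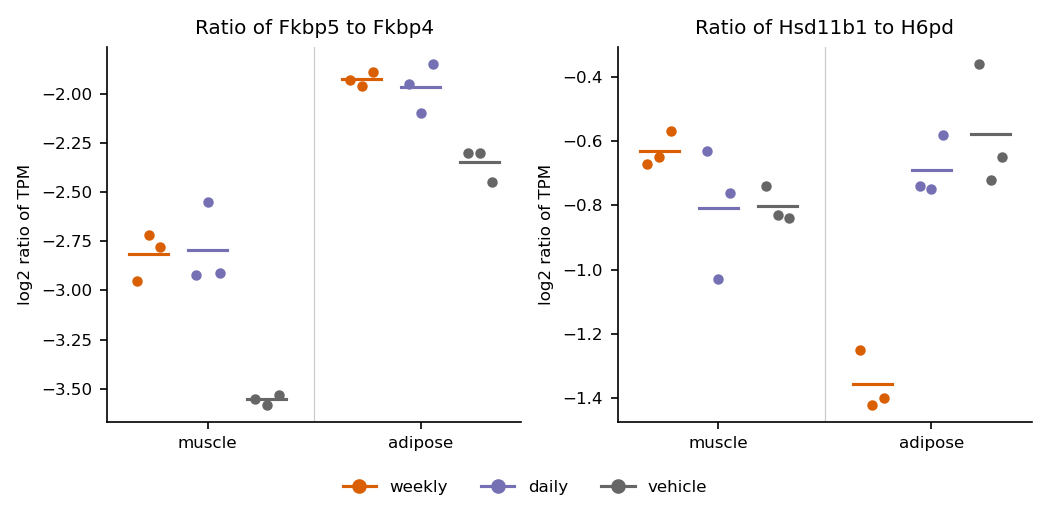
Log2 ratio of the TPM of Fkbp5 to Fkbp4 (left) and of Hsd11b1 to H6pd (right) in every library (points) with the group mean (line); weekly, daily and vehicle mice from left to right in each tissue, and the vertical axes do not start at 0. The first ratio was above vehicle in all 12 treated libraries, and the second was at -1.42 to -1.25 in weekly adipose tissue, below the other 6 adipose libraries.

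Hsd11b1 (chromosome 1, 193221634 to 193264075, minus strand) was the member with the largest change from vehicle among those that passed, and that change was in adipose tissue of weekly mice. It had 67.6, 56.2 and 60.03 TPM in weekly mice, against 90.2, 103 and 96.3 TPM in vehicle mice. Daily adipose tissue had 78.4, 85.4 and 83.5 TPM, between the others and overlapping neither. Hsd11b1 fell in weekly adipose tissue by 0.65 ± 0.08 (limma, adjusted p = 0.00648), to 61.3 ± 5.77 TPM, against 96.5 ± 6.38 TPM in vehicle mice (SD, n = 3 each). The daily difference was -0.22 ± 0.08 (limma, adjusted p = 0.466). Weekly minus daily was -0.42 ± 0.08 (limma, adjusted p = 0.0739) and passed under TMM scaling, where it was -0.58 (limma, adjusted p = 0.0383).

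The weekly fall passed without any 1 adipose library, without the 3 adipose libraries high in muscle transcripts, and under TMM scaling, where it was -0.82 (limma, adjusted p = 0.00292). It stood at -0.64 ± 0.13 with an adjusted p of 0.261 by limma once the third library of every group was left out. Which cells of the tissue held Hsd11b1 cannot be read from bulk libraries. The 10 adipocyte genes summed to between 36984 and 37878 TPM in weekly mice, against 38661 to 39487 TPM in vehicle mice. In daily mice they summed to between 35436 and 38339.8 TPM. Both treated ranges thus lay below vehicle, and 0 of 10 passed under either regimen. Other cell types moved with the fall: 8 fibroblast and progenitor genes summed to between 2186 and 2770.5 TPM in weekly mice, against 1839.9 to 1909 TPM in vehicle mice, with 4 of 8 passing as higher, and 3 of 6 mesothelial genes passed as higher. The sums of 8 endothelial genes were 541 to 701 TPM in weekly and 506 to 526 TPM in vehicle mice, with 1 of 8 passing as higher. Those of 10 macrophage genes were 2562 to 2985 and 1983 to 2672 TPM, with 3 of 10 passing as higher. Of 7 lymphocyte genes tested 1 passed as lower. Among all genes 5.72% were called higher and 1.72% lower, with a median of 0.13. The part of these cell types in the result was not tested. In a bulk sample fewer cells of a type and less RNA per cell cannot be told apart.

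In muscle Hsd11b1 had 13.9, 13.2 and 14.4 TPM in weekly mice and 12.4, 9.39 and 10.2 TPM in daily mice, against 14.2, 13.9 and 12.3 TPM in vehicle mice. Weekly muscle overlapped vehicle and differed from it by 0.04 ± 0.10 (limma, adjusted p = 0.884). Daily muscle was lower except for 1 library, at -0.31 ± 0.10 (limma, adjusted p = 0.0670). The lowest daily library, daily 2, was also the muscle library lowest in the 10 adipocyte genes, with 754 TPM, against 1896 and 1165 TPM in daily 1 and daily 3 and 1396 to 1883 TPM in vehicle muscle. Its part in the difference was not tested. The weekly difference in muscle exceeded that in adipose tissue by 0.69 ± 0.15 (limma on paired values, adjusted p = 0.0483), so 1 of 9 members passed where 2.78% of 11737 genes did, 0.0596% as higher. For the daily regimen the tissues differed by -0.09 ± 0.15 and 0 of 9 passed, against 0.0511% of all genes.

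H6pd (chromosome 4, 149979475 to 150009023, minus strand), the NADPH source of that enzyme, did not pass in weekly fat. It had 161, 151 and 159 TPM in weekly and 131, 144 and 125 TPM in daily adipose tissue, against 115, 169.5 and 151 TPM in vehicle adipose tissue. The groups overlapped vehicle, with differences of 0.13 ± 0.12 for weekly (95% interval -0.15 to 0.40) and -0.11 ± 0.12 for daily mice. In muscle H6pd had 22.2, 20.7 and 21.5 TPM in weekly and 19.3, 19.1 and 17.3 TPM in daily mice, against 23.8, 24.7 and 21.9 TPM in vehicle mice. H6pd fell in daily muscle by 0.32 ± 0.07 (limma, adjusted p = 0.0144), and TMM scaling gave -0.24 (adjusted p = 0.0496). That call was lost without vehicle 2 (-0.29, limma, adjusted p = 0.0527) and without daily 3 (-0.28, limma, adjusted p = 0.0674), and stood at -0.32 without the third libraries (limma, adjusted p = 0.181).

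The log2 ratio of Hsd11b1 to H6pd was -1.25, -1.42 and -1.40 in weekly adipose tissue and -0.74, -0.75 and -0.58 in daily adipose tissue, against -0.36, -0.72 and -0.65 in vehicle adipose tissue. Weekly libraries stood apart from both other groups, which overlapped each other. It differed by -0.78 between weekly and vehicle mice and by -0.67 between weekly and daily mice (exact permutation p = 0.1 for each, two-sided, adjusted 0.267, n = 3 each). In muscle the weekly ratio was 0.17 above vehicle without overlap, and the daily ratio differed by -0.00 with overlap.

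The promoter windows listed for these 2 genes are printed because their proteins work as a pair while the genes lie on different chromosomes. Capitals mark the single CCAAT box in Hsd11b1 and the single arm TGTTCT of the glucocorticoid response element in H6pd. That arm lay 94 bases before the RefSeq start of its window and was the only such match among the 6 windows. The window of H6pd also held a CCAAT box, left in lower case.
Hsd11b1 promoter, chr1:193242311-193242610, minus strand: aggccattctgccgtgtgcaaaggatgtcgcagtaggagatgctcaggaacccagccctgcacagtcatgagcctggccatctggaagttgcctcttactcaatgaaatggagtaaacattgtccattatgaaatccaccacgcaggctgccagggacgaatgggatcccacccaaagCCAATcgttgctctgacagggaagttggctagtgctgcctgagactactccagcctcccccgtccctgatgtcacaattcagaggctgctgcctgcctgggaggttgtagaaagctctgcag
H6pd promoter, chr4:150003187-150003486, minus strand: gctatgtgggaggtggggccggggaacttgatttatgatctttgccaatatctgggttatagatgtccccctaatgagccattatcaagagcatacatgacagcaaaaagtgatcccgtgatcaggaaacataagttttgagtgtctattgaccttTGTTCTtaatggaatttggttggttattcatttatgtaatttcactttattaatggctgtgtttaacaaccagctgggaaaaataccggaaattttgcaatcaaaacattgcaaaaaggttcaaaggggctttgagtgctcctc
Hsd11b1 has 7 annotated transcripts with different starts, and its window lies inside ENSMUST00000016338.14, shortly after the start of that transcript. The H6pd window lies before the start of ENSMUST00000084117.12 and inside ENSMUST00000030830.3. Neither window thus lies before its whole gene. In GENCODE M21 on GRCm38, transcript ENSMUST00000161737.7 starts at position 193264075 of chromosome 1, which is 21446 bases before the start of ENSMUST00000016338.14 at 193242629. Kallisto divides reads among transcripts that share sequence, so transcript values are estimates. The distant transcript held 75.5% to 84.9% of the Hsd11b1 TPM in adipose tissue and 39.8% to 87.0% in muscle. It had 54.7, 45.2 and 45.3 TPM in weekly adipose tissue, against 76.5, 81.5 and 77.3 TPM in vehicle adipose tissue, and it fell by 0.69 ± 0.08 (limma, adjusted p = 0.0362). ENSMUST00000016338.14 had 12.2, 8.89 and 12.8 TPM in weekly adipose tissue, against 12.6, 20.4 and 18.9 TPM in vehicle adipose tissue, a difference of -0.56 ± 0.21 (limma, adjusted p = 0.245). Both pointed the same way, and the share of the distant one was 80.9%, 80.4% and 75.5% in weekly mice, against 84.9%, 79.2% and 80.3% in vehicle mice.

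In muscle another Hsd11b1 transcript, ENSMUST00000160929.7, took 29.3% to 37.4% of the gene in 6 of the 9 libraries and less in weekly 2, daily 2 and daily 3, at 0.720%, 18.8% and 0.000353%. The distant transcript was at 87.0%, 60.5% and 77.1% in those 3. H6pd also differed between the tissues in its transcripts. ENSMUST00000084117.12 held 48.1% to 69.9% of H6pd in muscle, against at least 90.6% in adipose tissue. ENSMUST00000030830.3, which starts 5893 bases before it, held 21.4% to 42.1% in muscle, against 4.11% to 7.17% in adipose tissue. Its median was 6.74 TPM in muscle and 7.44 TPM in adipose tissue, while ENSMUST00000084117.12 had medians of 11.7 and 139, so the tissue gap of H6pd lay mainly in ENSMUST00000084117.12.

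**Figure D3:**
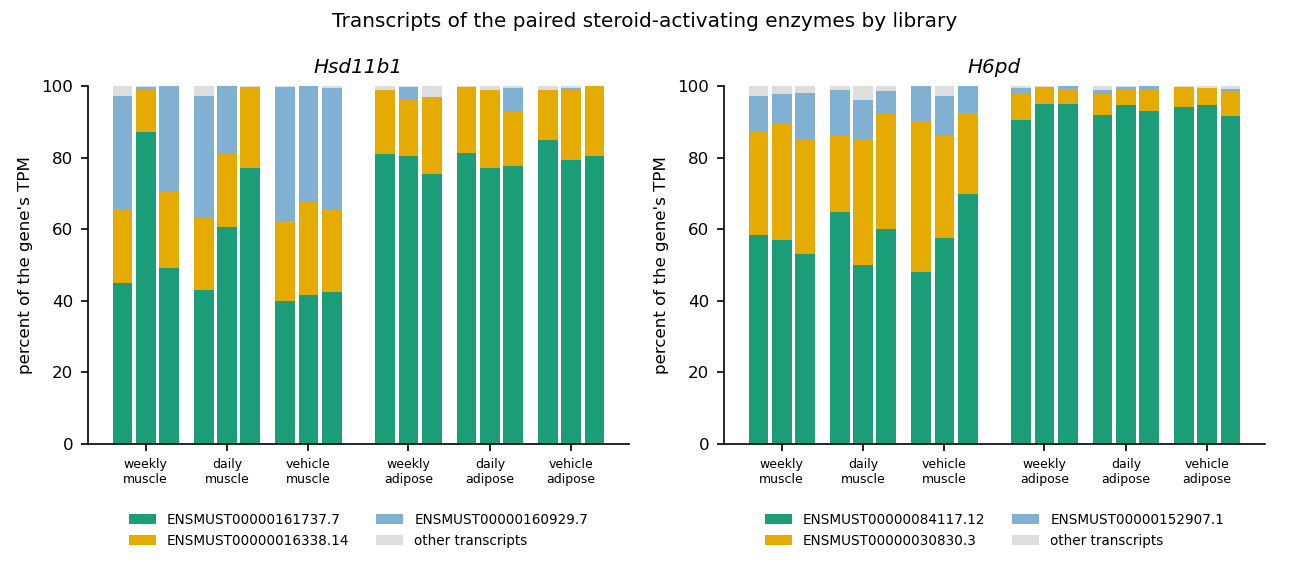
Percent of the TPM of Hsd11b1 (left) and H6pd (right) in each of its 3 most abundant transcripts and in the others, 1 bar per library, with weekly, daily and vehicle libraries from left to right for muscle and then adipose tissue. The leading H6pd transcript took 48.1% to 69.9% in muscle and at least 90.6% in adipose tissue.

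The receptor genes were lower in muscle of daily mice. Nr3c1 had 16.5, 14.8 and 17.3 TPM in weekly muscle and 14.3, 12.8 and 12.8 TPM in daily muscle, against 15.8, 15.9 and 16.5 TPM in vehicle muscle. Daily libraries lay below all vehicle and weekly libraries. Among all genes 27.8% lay lower in daily than in vehicle muscle without overlap, and 14.7% lay higher in weekly than in daily muscle. Nr3c1 fell in daily muscle by 0.26 ± 0.07 (limma, adjusted p = 0.0478), while weekly muscle gave 0.01 ± 0.07 (limma, adjusted p = 0.958). Weekly minus daily was 0.27 ± 0.07 and missed the threshold (limma, adjusted p = 0.109). The Nr3c1 call was lost without any 1 of vehicle 1, 2 or 3, weekly 1 or 3, or daily 2 or 3 (-0.27 to -0.23, limma, adjusted p 0.0585 to 0.163) and under TMM scaling (-0.17, adjusted p = 0.159), and without the third libraries it stood at -0.21 (limma, adjusted p = 0.386). Its transcripts did not move together in daily muscle. The leading one, ENSMUST00000115571.7, stood at 0.54 ± 0.34 (limma, adjusted p = 0.409) and ENSMUST00000115567.7 at -1.14 ± 0.37 (limma, adjusted p = 0.116). In weekly muscle they stood at 0.68 and -0.77, against the same vehicle libraries. Both varied widely between the muscle libraries. ENSMUST00000115567.7 had 1.80 to 11.4 TPM with a median of 2.89, and ENSMUST00000115571.7 had 3.20 to 12.4 TPM with a median of 9.35. The part of single libraries and of the division of reads among transcripts was not tested here.

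Nr3c2 had 2.75, 2.63 and 2.29 TPM in weekly muscle and 2.07, 2.47 and 2.05 TPM in daily muscle, against 3.25, 3.01 and 2.99 TPM in vehicle muscle. All 6 treated libraries lay below all vehicle libraries. So did 19.3% of all genes in weekly and 27.8% in daily muscle, each regimen taken alone. Nr3c2 fell in daily muscle by 0.36 ± 0.09 (limma, adjusted p = 0.0330) and stood at -0.20 ± 0.09 in weekly muscle (limma, adjusted p = 0.339). Its call was lost without vehicle 1, 2 or 3, daily 1 or daily 3 (-0.37 to -0.32, limma, adjusted p 0.0696 to 0.127) and under TMM scaling (-0.29, adjusted p = 0.103), and without the third libraries it stood at -0.34 (limma, adjusted p = 0.291). In adipose tissue neither receptor passed. Nr3c1 had 41.1, 34.1 and 37.4 TPM in weekly and 33.7, 28.3 and 33.4 TPM in daily adipose tissue, against 29.1, 35.5 and 33.6 TPM in vehicle adipose tissue. Nr3c2 had 3.47, 2.53 and 3.54 TPM in weekly and 2.31, 2.24 and 2.66 TPM in daily adipose tissue, against 2.64, 3.14 and 2.61 TPM in vehicle adipose tissue, and both treated groups overlapped vehicle for both genes. Nr3c1 in weekly mice lay above daily mice without overlap, as did 22.5% of all genes. Weekly minus daily was 0.23 for Nr3c1, and 0.08 under TMM scaling (limma, adjusted p = 0.647).

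**Figure D4:**
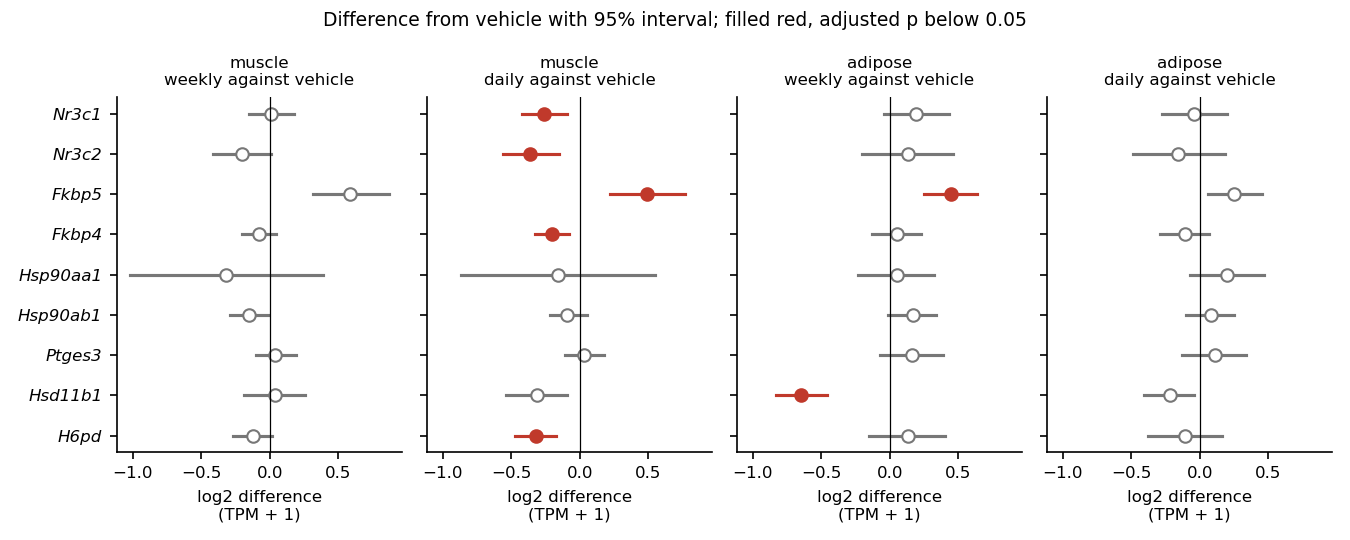
Log2 difference from vehicle of log2(TPM + 1) for the 9 genes, with 95% intervals from limma, in weekly and daily muscle and weekly and daily adipose tissue; filled red points have an adjusted p below 0.05 over all genes of the tissue. In daily muscle Fkbp5 was above 0 and Nr3c1, Nr3c2, Fkbp4 and H6pd below it; in weekly adipose tissue Fkbp5 was above 0 and Hsd11b1 below it.

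Counted together, 5 of the 9 members passed in daily muscle, 1 as higher and 4 as lower, where 13.7% of 12246 genes passed, 1.91% as higher and 11.8% as lower. The same 5 did not overlap vehicle, against 33.8% of all genes (6.02% higher and 27.8% lower). Most called genes in that comparison were lower, 86.0% of them, or 56.6% under TMM scaling, which left 2 of the 9 called (Fkbp5 and H6pd). The members' median difference was -0.20 and that of all genes -0.09. With the third libraries left out 0 of 9 passed. In the same muscles the 10 macrophage genes summed to 368 to 565 TPM in daily mice, against 215 to 314 TPM in vehicle mice, with 3 of 10 passing as higher, and their part in these results was not tested.

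In weekly muscle 0 of 9 passed by limma, where 0.0490% of all genes did and 1891 genes had an unadjusted p under 0.05. Here 3 of 9 did not overlap vehicle (Fkbp5 higher, Nr3c2 and Fkbp4 lower), against 23.0% of all genes (3.75% higher and 19.3% lower). Between weekly and daily muscle 0 of 9 passed, against 1.77% of all genes, and 4 of 9 did not overlap, all higher in weekly mice (Nr3c1, Fkbp4, Hsd11b1 and H6pd), against 23.3% of all genes, 14.7% as higher. In weekly adipose tissue 2 of 9 passed, 1 higher and 1 lower, against 7.43% of 14150 genes (5.72% higher and 1.72% lower). There 4 of 9 did not overlap vehicle (Fkbp5, Hsp90ab1 and Ptges3 higher, Hsd11b1 lower), against 35.4% of all genes (27.6% higher and 7.88% lower); TMM scaling turned Hsp90ab1 to -0.01 and Ptges3 to -0.01. Called genes there were lower in 23.1% of cases, or 67.4% under TMM scaling. In daily adipose tissue 0 of 9 passed by limma, against 0.00707% of all genes, with 1305 genes at an unadjusted p under 0.05, and 2 of 9 (Fkbp5 and Hsd11b1) did not overlap vehicle, against 15.6% (7.66% higher and 7.93% lower). Between weekly and daily adipose tissue 0 of 9 passed, against 0.311%, and 4 of 9 did not overlap, against 25.5% (22.5% higher and 3.05% lower). Nr3c1, Fkbp5 and H6pd were higher in weekly mice, where the median of all genes was 0.12, and Hsd11b1 was lower. Under TMM scaling Nr3c1, Fkbp5 and H6pd stood at 0.08, 0.04 and 0.08.

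The chaperones that carry the receptor did not pass in any comparison with vehicle. Hsp90ab1, the constitutive HSP90, had 440.0, 491 and 446 TPM in weekly muscle and 473, 482 and 480.0 TPM in daily muscle, against 479, 549.8 and 498 TPM in vehicle muscle. In adipose tissue it had 509, 499 and 496 TPM in weekly and 459.8, 505 and 451 TPM in daily mice, against 399.8, 490.0 and 455 TPM in vehicle mice. Its largest difference from vehicle was 0.17 ± 0.08 in weekly adipose tissue (limma, adjusted p = 0.177), and TMM scaling turned it to -0.01. Ptges3 ranged from 45.1 to 53.0 TPM in muscle and from 53.1 to 71.4 TPM in adipose tissue, with differences from vehicle of 0.03 to 0.16.

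Hsp90aa1, the heat-inducible HSP90, varied most from mouse to mouse in muscle. It had 36.2, 57.9 and 41.7 TPM in weekly muscle and 52.4, 48.6 and 48.2 TPM in daily muscle, against 33.8, 95.9 and 53.0 TPM in vehicle muscle. The vehicle group alone spanned the other 2. The 95% interval of the weekly difference, -1.02 to 0.39, leaves room for changes of either sign. Hspa1a, a heat shock gene picked after its values were seen, had 3.79, 25.4 and 11.8 TPM in weekly and 22.4, 7.27 and 13.2 TPM in daily muscle, against 2.84, 99.3 and 44.1 TPM in vehicle muscle. Within the vehicle and the weekly group it put the mice in the same order as Hsp90aa1, and in the daily group it did not. Its part in the spread of Hsp90aa1 was not tested. In adipose tissue Hsp90aa1 had 186, 243 and 241 TPM in weekly and 224, 279 and 239 TPM in daily mice, against 199.7, 205 and 241 TPM in vehicle mice.

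Both HSP90 proteins end in the same short tail, which the repeat domains of FKBP51 and FKBP52 bind. The last 60 coding bases before the stop codon are shown for that reason, from GENCODE M21 on GRCm38, with the last 5 codons in capitals.
Hsp90aa1, chr12:110691543-110691602, minus strand: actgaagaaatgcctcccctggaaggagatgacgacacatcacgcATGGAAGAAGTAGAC
Hsp90ab1, chr17:45568018-45568077, minus strand: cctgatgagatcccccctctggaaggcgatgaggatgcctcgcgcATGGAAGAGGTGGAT
Of the 60 bases 45 were the same in both, and of the last 15 bases 12 were, with 3 of the 5 codons differing and each of these 3 coding for the same amino acid. Reads can still be told apart between the 2 genes over most of their length, since their leading transcripts shared 3 words of 31 bases, the default word length of kallisto. Processed copies elsewhere are closer: 70.8% of the 31-base words of the leading Hsp90aa1 transcript, 23.1% of those of Ptges3 and 16.6% of those of Hsp90ab1 occurred in other genes, against 0.127% for Nr3c1 and 0 for the other 5. The copy sharing most with Hsp90aa1, Gm12346, was listed at 0 to 0.495 TPM in muscle and 0.751 to 2.18 TPM in adipose tissue. The copy sharing most with Ptges3 was not found by symbol among the genes read here, so no level can be given for it. Levels of Hsp90aa1 and Ptges3 are uncertain in how reads from such copies were assigned.

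Transcripts of Ptges3 were also read singly. Its leading transcript ENSMUST00000052798.13 had 41.2, 45.4 and 45.7 TPM in weekly and 41.5, 45.4 and 46.4 TPM in daily muscle, against 37.5, 32.8 and 35.9 TPM in vehicle muscle. Treated libraries were above every vehicle library, while the gene sums overlapped. How often this held over all transcripts was not counted. The transcript rose in daily muscle by 0.32 ± 0.07 (limma, adjusted p = 0.0422), and under TMM scaling 0 member transcripts passed there. The coding transcript ENSMUST00000084771.2 pointed the other way, at -1.35 ± 0.54 in daily muscle (limma, adjusted p = 0.193) and -1.17 ± 0.54 in weekly muscle (limma, adjusted p = 0.467). The gene sum differed from vehicle by 0.03 and 0.04. The part of the division of reads among transcripts was not tested. Of 56 transcripts of the 9 genes 25 were tested in muscle, where 1 passed in daily mice against 5.64% of 24128, and 28 in adipose tissue, where 1 passed in weekly mice against 0.0855% of 36256.

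Other partners of the receptor were read from 2 further lists. Of 26 other chaperones and co-chaperones, all tested, 2 rose and 3 fell in daily muscle, with a median of -0.11 against -0.09 for all genes, of which 1.91% were called higher and 11.8% lower. Hsp90b1, the HSP90 of the endoplasmic reticulum, rose by 0.33 ± 0.05 (limma, adjusted p = 0.00516), and Hspa4, an exchange factor of HSP70, by 0.29 ± 0.07 (limma, adjusted p = 0.0328). Sgta, Dnaja2 and Trap1 fell by 0.30, 0.31 and 0.21 (limma, adjusted p = 0.00668, 0.0234 and 0.0438); Trap1, the mitochondrial HSP90, was named after its value was seen. In weekly adipose tissue Hsp90b1 alone of the 26 passed, with a rise of 0.43 ± 0.08 (limma, adjusted p = 0.0209). There 5.72% of all genes were called higher and 1.72% lower. In the other 4 treatment comparisons 0 of 26 passed. Hsp90b1 had 51.2 to 55.8 TPM in weekly and 56.6 to 58.8 TPM in daily muscle, against 44.7 to 46.8 TPM in vehicle muscle.

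Of 20 coregulators and import factors 4 fell and 0 rose in daily muscle, with a median of -0.19; among all genes 11.8% were called lower and 1.91% higher. Among them were Carm1, an arginine methyltransferase and coactivator (-0.51 ± 0.08, limma, adjusted p = 0.00627), Ipo13, an importin (-0.28 ± 0.06, limma, adjusted p = 0.0214), and Hdac3, a histone deacetylase (-0.22 ± 0.06, limma, adjusted p = 0.0325). Carm1 had 22.4 to 27.4 TPM in weekly and 21.0 to 21.7 TPM in daily muscle, against 28.5 to 32.3 TPM in vehicle muscle. In weekly adipose tissue Nr2f2, a nuclear receptor that can bind the glucocorticoid receptor, was the only one of the 20 to pass, with a rise of 0.63 ± 0.16 (limma, adjusted p = 0.0464). There 5.72% of all genes were called higher. Of the steroid and NADPH list Slc37a4 and G6pc3, which handle glucose 6-phosphate at the endoplasmic reticulum, fell in daily muscle by 0.29 and 0.26 (limma, adjusted p = 0.0335 and 0.0235), 2 of 8 tested. Pgls, of the cytosolic pentose phosphate pathway, fell in weekly adipose tissue by 0.37 (limma, adjusted p = 0.0444), 1 of 9 tested. In that comparison 1.72% of all genes were called lower. Genes of these 3 lists were not refitted under TMM scaling; the median of all genes was 0.13 in weekly adipose tissue and -0.09 in daily muscle.

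Genes whose pattern was most like that of a member were sought over the 18 libraries, each centred on its tissue, among 7160 genes averaging at least 5 TPM in both tissues. For Nr3c1 they were Tgoln1, Mink1 and Uaca, each with a Pearson r of 0.92. For Fkbp5 they were Scd2 (0.83), Npc1 (0.80) and Klf10 (0.80), and for Hsd11b1 they included H2afv (0.84) and Acaa2 (0.84). These are descriptions: the libraries share regimens and scaling, and the highest of 7160 values is high in any set.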

How the data were processed

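Values were deposited by the authors as TPM for 105129 transcripts, each with a gene symbol, in 18 libraries; per the submitters' processing notes the tools were Trimmomatic, HISAT2 and kallisto and the build mm10, with no version or role given, and per the labels the mRNA libraries were stranded. TPM keeps no read counts, so depth is unknown and errors come from the spread between mice. Transcripts were summed by symbol into 33641 genes. Per tissue, genes reaching 1 TPM in 3 or more libraries entered limma 3.58.1 (R 4.3.3) as log2 of TPM plus a pseudocount of 1, with one fit over all groups, eBayes with trend, 6 residual degrees of freedom and Benjamini-Hochberg adjustment over all genes tested; calls are at 0.05. For tissue comparisons the adipose value of each mouse was subtracted from its muscle value. Ratios were tested with exact permutation tests (scipy 1.17.1). Figures were drawn with matplotlib 3.10.9.

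The members, gene lists and alternatives were chosen with earlier results of these data known. All 9 members are described, and up to 4 called genes with the smallest p are named from each other list. Some genes that these rules name are not reported here. Sequences come from RefSeq promoter windows (GRCm38.p6) and GENCODE M21; protein alignments were not made. A design note mentions 2 daily adipose samples, whereas labels and table hold 3, all used. Across genes, Pearson correlations between libraries of 1 group were 0.984 to 0.992 (muscle) and 0.975 to 0.990 (adipose), with 0 identical pairs. Alternatives were TMM scaling, a pseudocount of 0.1, no filter, a filter at 5 TPM, a fit of 2 groups, a replicate block, single libraries left out, the third libraries left out, and the adipose libraries high in muscle transcripts left out. The fits were tested on simulated data.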

Additional observations from a re-analysis of the deposited data

Results flagged for a closer look

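The difference between the tissues in the response of Hsd11b1 to the weekly regimen stood out because the same contrast gave different effects in 2 tissues. The difference of muscle minus adipose effects was 0.69 ± 0.15 (limma on paired values, adjusted p = 0.0483, 3 mice per group), from 0.04 in muscle and -0.65 in adipose tissue. It lost its call under TMM scaling (0.91, adjusted p = 0.104), with a pseudocount of 0.1 (0.70, 0.0632), with no filter on low values (0.69, 0.0734), with a block for the replicate number (0.69, 0.0821) and without the third library of each group (0.59, 0.338). It also lost it without vehicle 1, 2 or 3, weekly 1, 2 or 3, daily 1 or daily 3, with 0.63 to 0.77 and adjusted p 0.0508 to 0.139 by limma. The sign was the same in all of these settings.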

How the results depend on the processing

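Depth cannot be read from TPM, so no limit from counting can be given, and with 3 mice per group small changes were not detectable. Of the called results, the fall of Hsd11b1 in weekly adipose tissue kept its call in every setting except without the third libraries; calls in daily muscle were lost in several. With a filter at 5 TPM Hsd11b1 passed in daily muscle (adjusted p = 0.0483 by limma).

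Members called in daily muscle, 5 in all, were 2 under TMM scaling, 1 with no filter, 3 with the replicate block, 1 in a fit of 2 groups and 0 without the third libraries. In weekly adipose tissue, with 2, they were 1 under TMM scaling, 1 in a fit of 2 groups, 1 without the libraries high in muscle transcripts and 0 without the third libraries; between weekly and daily adipose tissue TMM scaling gave 1 instead of 0. The tissue difference of the weekly effect, with 1, had 0 under TMM scaling, a pseudocount of 0.1, no filter, the replicate block or without the third libraries. Same-numbered libraries of a tissue deviated together with a median correlation of -0.03 in muscle (-0.12 to 0.11) and 0.03 in adipose tissue (-0.06 to 0.19). In muscle 5 of 9 and in adipose tissue 6 of 9 correlated best with their own number, more than equal shares of the 3 numbers would give. Whether the replicate numbers mark related mice was not settled by these values. The member transcript called in daily muscle was lost under TMM scaling (0). Without single libraries the members called ranged from 0 to 4 in daily muscle, 1 to 2 in weekly adipose tissue and 0 to 1 for the tissue difference.

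Genes called in weekly muscle (6) were 0 with no filter, 3 at 5 TPM, 0 with the replicate block, 10 in a fit of 2 groups, 0 without the third libraries, and 0 to 11 without single libraries. In daily muscle (1674) they were 782 under TMM scaling, 7 without the third libraries and 506 to 1647 without single libraries. Between weekly and daily muscle (217) they were 100 with the replicate block, 78 in a fit of 2 groups, 9 without the third libraries and 32 to 249 without single libraries. In weekly adipose tissue (1052) they were 291 with no filter, 485 in a fit of 2 groups, 1 without the third libraries, 2205 without the libraries high in muscle transcripts and 65 to 1526 without single libraries. In daily adipose tissue (1) they were 0 to 14 over all settings: 0 with a pseudocount of 0.1, the replicate block or without the third libraries, 2 at 5 TPM, 3 in a fit of 2 groups and 7 without the libraries high in muscle transcripts. Between weekly and daily adipose tissue (44) they were 11 under TMM scaling, 8 with no filter, 72 at 5 TPM, 12 with the replicate block, 16 in a fit of 2 groups, 0 without the third libraries, 14 without the libraries high in muscle transcripts and 2 to 48 without single libraries. Between tissues (10209) they were 6558 at 5 TPM. For the tissue difference of the weekly effect (326) they were 0 under TMM scaling, 177 with a pseudocount of 0.1, 27 with no filter, 0 with the replicate block or without the third libraries, and 0 to 596 without single libraries. For the daily effect (6) they were 2 with a pseudocount of 0.1, 14 with no filter, 18 at 5 TPM, 0 with the replicate block or without the third libraries, and 0 to 5 without single libraries.

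Some signs turned, among them the called differences of Nr3c1, Fkbp5 and Ptges3 between tissues. Under TMM scaling these were Hsp90ab1 in daily muscle (0.01), Ptges3 between regimens in muscle (-0.01), in weekly adipose tissue Nr3c2 (-0.00), Fkbp4 (-0.12), Hsp90aa1 (-0.13), Hsp90ab1 (-0.01), Ptges3 (-0.01) and H6pd (-0.05), between regimens in adipose tissue Hsp90ab1 (-0.07) and Ptges3 (-0.10), between tissues Nr3c1 (0.09), Fkbp5 (0.39) and Ptges3 (0.88), in the tissue difference of the weekly effect Nr3c1 (0.04), Fkbp4 (0.10) and Ptges3 (0.11), and of the daily effect Ptges3 (0.02). Without the third libraries Nr3c1 (-0.02) and Hsd11b1 (-0.05) turned in weekly muscle and Ptges3 (-0.00) between regimens in adipose tissue. Without the libraries high in muscle transcripts Fkbp4 (-0.02) and Hsp90aa1 (-0.21) turned in weekly and Nr3c1 (0.04) and Ptges3 (-0.01) in daily adipose tissue. The ratio of Hsd11b1 to H6pd in daily muscle, -0.00, was 0.01 with 1 TPM added. The cause was not tested.

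Without single libraries the differences that turned ranged as follows. In weekly muscle Nr3c1 was at -0.04 to 0.07, Hsp90aa1 at -0.67 to 0.07, Ptges3 at -0.01 to 0.08 and Hsd11b1 at -0.02 to 0.08. In daily muscle Hsp90aa1 was at -0.51 to 0.23 and Ptges3 at -0.02 to 0.08, and between regimens Fkbp5 at -0.01 to 0.25 and Ptges3 at -0.03 to 0.06. In weekly adipose tissue Hsp90aa1 was at -0.02 to 0.17 and H6pd at -0.03 to 0.24. In daily adipose tissue Nr3c1 was at -0.12 to 0.04, Hsp90ab1 at -0.00 to 0.14, Ptges3 at -0.01 to 0.20 and H6pd at -0.27 to 0.01, and between regimens Ptges3 at -0.04 to 0.17. The tissue difference of Hsp90aa1 was at -0.67 to 0.05 for the weekly and -0.66 to 0.06 for the daily effect, and that of Hsd11b1 at -0.23 to 0.01 for the daily effect. Log2 ratios of Fkbp5 to Fkbp4 between regimens were at -0.09 to 0.10 in muscle and -0.02 to 0.10 in adipose tissue, and Hsd11b1 to H6pd in daily muscle at -0.09 to 0.11. Those of Hsp90aa1 to Hsp90ab1 were at -0.49 to 0.16 in weekly muscle, -0.39 to 0.26 in daily muscle, -0.24 to 0.02 between regimens in muscle and -0.22 to 0.02 in weekly adipose tissue. Those of Nr3c1 to Nr3c2 were at -0.06 to 0.16 between regimens in muscle and -0.06 to 0.11 in weekly adipose tissue.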
